A study of Mus musculus with 4 samples.

Results

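Neo1 encodes neogenin, a transmembrane receptor of the immunoglobulin superfamily, and was taken up through all rows that the deposited table of alternative splicing (AS) events lists under its symbol. There were 2 such rows among 1075 deposited events in 869 genes, a cassette exon and a choice between acceptor sites (class Alt3). The gene was chosen by the PSI values of its cassette exon, which give the lowest dPSI among well-covered exons of the same comparison (PSI and dPSI are explained with the values), so the difference between the groups is given for both rows as a description, with no test. RNA-seq had been made from mouse endothelial cells (ECs) that carried, by lentiviral transduction, either the empty HA vector (control, 2 libraries) or HA-tagged human NOVA2 from the CMV promoter (NOVA2-overexpressing, 2 libraries). Cells of both groups were stable lines under puromycin selection, and the NOVA2-overexpressing cells were plated sparse, while the density of the control cells is not stated in the sources used here. Whether the duplicates of a group came from separate cultures is not stated either. The p values of Fisher's exact test take in counting error only, not the spread between libraries or cultures. Those between groups come from reads summed per group. Expression of NOVA2 and of endothelial markers was not analysed here.

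Neogenin is the closest relative of DCC. It binds netrins and the repulsive guidance molecules (RGMs), and it serves as a co-receptor for bone morphogenetic proteins (BMPs). Its outer part holds immunoglobulin-like domains followed by fibronectin type III repeats, and its cytoplasmic tail passes signals on to actin regulators and kinases. In the vasculature the netrin receptors guide vessel branches and are known to act on EC adhesion and migration. NOVA2 is an RNA-binding protein that recognises clusters of the tetramer YCAY, where Y is C or T, and its place relative to an exon is known to matter, since binding in or before the exon goes with skipping and binding after it with inclusion.

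The cassette exon is exon 26 of 29 in the longest annotated transcript (Neo1-201 of ENSMUSG00000032340) and lies on the minus strand in coding sequence at chr9:58732277-58732435 of mm9. It is 159 nt long, a multiple of 3, and the annotated transcript Neo1-202 lacks it. The deposited row names a second, inner acceptor of the same exon that would leave an exon of 95 nt, which is not a multiple of 3 and is not in the annotation used here. The deposited reads are not split between these acceptors. The acceptor event lies in exon 17 at chr9:58754678-58754901 on the same strand, where an outer and an inner acceptor are 48 nt apart, so that both forms keep the frame. The deposited percent belongs to the outer acceptor. Both sequences are shown 5′ to 3′ because the motif count and the acceptor choice turn on them. In the first, the last 40 nt of the intron, exon 26 and the first 20 nt of the next intron are given (chr9:58732257-58732475), and capitals mark every YCAY. In the second, capitals mark the 48 nt between the acceptors of exon 17, with 40 nt before and 20 nt after them (chr9:58754834-58754941).
Neo1 exon 26: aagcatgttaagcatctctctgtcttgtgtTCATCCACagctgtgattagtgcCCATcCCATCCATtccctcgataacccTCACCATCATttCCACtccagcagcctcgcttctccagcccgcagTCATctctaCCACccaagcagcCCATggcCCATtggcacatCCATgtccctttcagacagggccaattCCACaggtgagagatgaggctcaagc
Neo1 exon 17 acceptors: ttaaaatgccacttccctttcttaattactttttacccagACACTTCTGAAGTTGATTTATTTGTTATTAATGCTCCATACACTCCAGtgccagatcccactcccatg

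Inclusion of exon 26 was nearly complete in control ECs and lower in both libraries of NOVA2-overexpressing ECs. PSI, the percent of reads that include the exon, was 96.63% in control replicate 1 and 96.61% in control replicate 2. It was 67.73% and 63.65% in NOVA2-overexpressing replicates 1 and 2. Both NOVA2-overexpressing libraries thus lay well below both control libraries, which follows in part from the authors' filter, since the table holds only events with a gap of more than 5 points between every pair of libraries from different groups. The group means were 96.6% ± 0.0141 (SD, n = 2) and 65.7% ± 2.88 (SD, n = 2), and the dPSI, the NOVA2-overexpressing mean minus the control mean, was -30.9 points. Between single libraries of different groups the gap ran from 28.9 to 33.0 points. Put as skipping, 3.38% of transcripts lacked the exon in control ECs and 34.3% in NOVA2-overexpressing ECs, a ratio of 10.2.

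**Figure D1:**
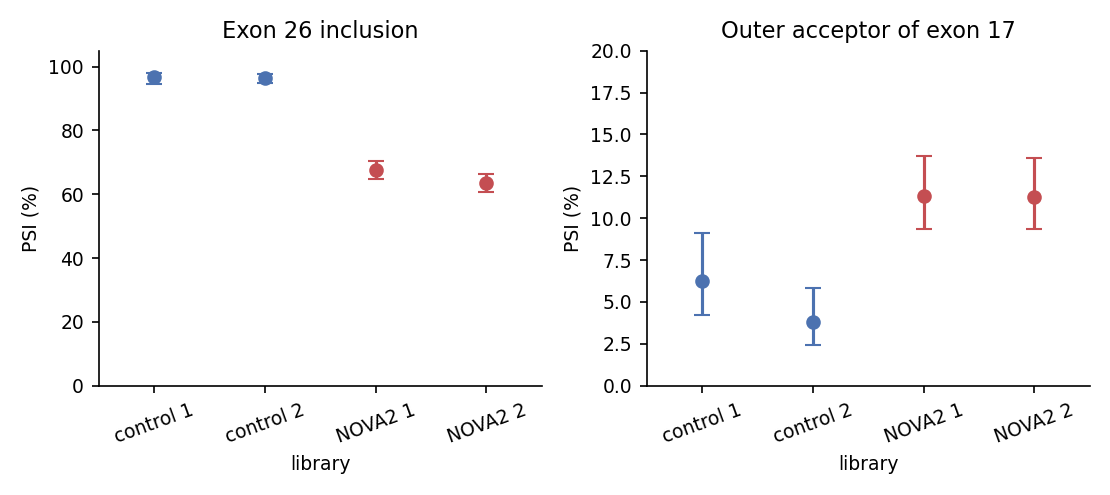
PSI in percent of exon 26 (left) and of the outer acceptor of exon 17 (right) in each library, with different vertical scales. Points are the deposited PSI and bars the 95% Wilson intervals of the reads; exon 26 sits at 96.6% in both control libraries and at 63.65% and 67.73% in the NOVA2-overexpressing ones, while the outer acceptor goes from 3.77% and 6.22% to 11.29% and 11.34%.

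Behind these percentages stood deep junction coverage. In control replicate 1 the junction into exon 26 had 468 reads, the junction out of it 450, and the junction that skips it 16. Control replicate 2 had 512, 571 and 19 reads in the same order. Skipping reads were thus few in both control libraries. NOVA2-overexpressing replicate 1 had 706, 755 and 348 reads, and replicate 2 had 632, 695 and 379. In both of these libraries skipping reads were fewer than the reads of either inclusion junction, but of the same order. For exon 26 the PSI computed from these raw reads equals the deposited one, so the mappability correction of vast-tools, the tool behind the table, did not move it. The 95% Wilson intervals, taken on the skipping reads and the mean of the inclusion junctions, were 94.6% to 97.9% and 94.8% to 97.8% in control replicates 1 and 2. In NOVA2-overexpressing replicates 1 and 2 they were 64.9% to 70.5% and 60.7% to 66.5%. Such intervals take in the error of counting alone, because copies made by PCR cannot be recognised.

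Whether both edges of the exon were joined equally is a measure that the choice of the gene did not use. The ratio of reads at the upstream inclusion junction to those at the downstream one was 1.04 and 0.897 in the control libraries and 0.935 and 0.909 in the NOVA2-overexpressing libraries. The ranges of the groups overlapped. Summed over libraries, 980 upstream and 1021 downstream reads in control ECs compared with 1338 and 1450 in NOVA2-overexpressing ECs, a ratio of ratios of 0.961 (p = 0.519, Fisher's exact test, two-sided). Without control replicate 1 this ratio was 1.03, on the other side of 1. A difference in balance was not detectable at this depth.

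Replicates of a group were closer to each other than to any library of the other group. At exon 26 the control replicates differed by 0.0385 points and the NOVA2-overexpressing replicates by 4.06 points. On corrected reads the latter difference passed narrowly at 0.05 (Fisher's exact test, p = 0.0116, adjusted p = 0.0464 over 4 comparisons). The intervals above nevertheless overlap within each group. Corrected reads count both inclusion junctions and scale the skipping reads up with them. In NOVA2-overexpressing replicates 1 and 2, 348 and 379 skipping reads stand as 584 and 620 exclusion reads. A p value from corrected reads is thus too small even for counting error. In the same test p was 0.0341 with the upstream and 0.0691 with the downstream junction alone, neither of them adjusted. No other pair of replicates passed, at exon 26 or at exon 17. At the acceptors of exon 17 the control replicates were 2.45 points apart and the NOVA2-overexpressing replicates 0.0596 points apart. The wider pair was thus the NOVA2-overexpressing one at exon 26 and the control one at exon 17.

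The acceptor choice in exon 17 differed on a smaller scale. Use of the outer acceptor, which gives the longer exon of 224 nt, was 6.22% and 3.77% in control replicates 1 and 2 and 11.34% and 11.29% in NOVA2-overexpressing replicates 1 and 2. Every NOVA2-overexpressing library was above every control library, again a condition for being listed, and the closest pair was 5.07 points apart, just past that limit. The means were 5.00% ± 1.73 (SD, n = 2) and 11.3% ± 0.0354 (SD, n = 2), a dPSI of 6.32 points and a ratio of 2.27. The outer acceptor had 23 of 380 reads and 18 of 491 reads in control ECs. It had 90 of 814 and 93 of 845 reads in NOVA2-overexpressing ECs. No read skipped exon 17 in any of the libraries. The 95% Wilson intervals on the corrected reads were 4.20% to 9.11% and 2.41% to 5.84% in control ECs. In NOVA2-overexpressing ECs they were 9.34% to 13.7% and 9.33% to 13.6%, apart from both control intervals, although control replicate 1 came within a fraction of a point. With control replicate 2 left out the dPSI was 5.09 points, and with control replicate 1 left out 7.54 points.

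The inner acceptor of exon 17 thus took most reads in every library, yet it is the outer one that the annotation holds in all of its Neo1 transcripts. On a weight matrix built from 197423 annotated acceptors, whose median score was 9.31 on the log2 scale, the outer acceptor scored 9.12 and the inner one 3.69, and 7.36% of annotated acceptors scored below the latter. The reading of the row was therefore checked on the other rows. In 89 deposited Alt3 events with a pair of acceptors, the row number and the listed length marked the outer acceptor in the same way in all 89. Of 59 such events with exactly 1 annotated acceptor, the annotated one took most reads in 49, and Neo1 is among the other 10.

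The acceptors of exon 26 were also scored. The outer, annotated acceptor had 9.24 and the inner one, with 14.4% of annotated acceptors below it, 5.52. The donor of exon 26 scored 10.5, above 85.0% of 200414 annotated donors, and the donor of the exon before it 5.47, above 17.5%. Both introns beside exon 26 are long, 3772 nt before and 3614 nt after it. The medians over the other 548 deposited cassette exons were 2005 nt and 2020 nt.

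Exon 26 was dense in YCAY. The motifs searched were TCAC and TCAT together with their forms that begin with C instead, CCAC and CCAT, on the transcript strand, overlapping ones included. Exon 26 held 13 of them, or 8.18 per 100 nt, against a median of 1.66 per 100 nt over the other 548 deposited cassette exons, of which 5 (0.912%) were as dense. Over 163367 annotated internal coding exons the median was 1.56 and 0.112% were as dense. Among 49603 annotated exons of 129 to 189 nt the median count was 3, and 0.0282% held 13 or more. The 13 motifs start between base 14 and base 154 of the exon, with a median step of 8 nt and at most 33 nt between starts, 7 before the inner acceptor and 6 after it. With the inner acceptor as the start, the form in which the other deposited exons were also taken, the exon held 6 motifs, or 6.32 per 100 nt, and 2.74% of the other deposited cassette exons and 0.523% of the annotated exons were as dense. YGAY, in which G takes the place of the inner C, occurred 2 times in exon 26. It was not matched for base composition or counted in other exons, so it gives no background for YCAY. A motif match is a description of the sequence and no measure of binding.

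Outside the exon the motif was less frequent. The last 200 nt of the intron before the annotated acceptor of exon 26 held 5 YCAY, where 29.7% of the other deposited cassette exons held at least as many and the median was 3. The first 200 nt after it held 1, against a median of 3, and 95.3% of the others held at least 1. Around exon 17, the 200 nt before the outer acceptor held 5, the 48 nt between the acceptors 1, the rest of the exon 6 and the 200 nt after the exon 1. At least 1 YCAY was found within 78.5% of the other deposited cassette exons.

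**Figure D2:**
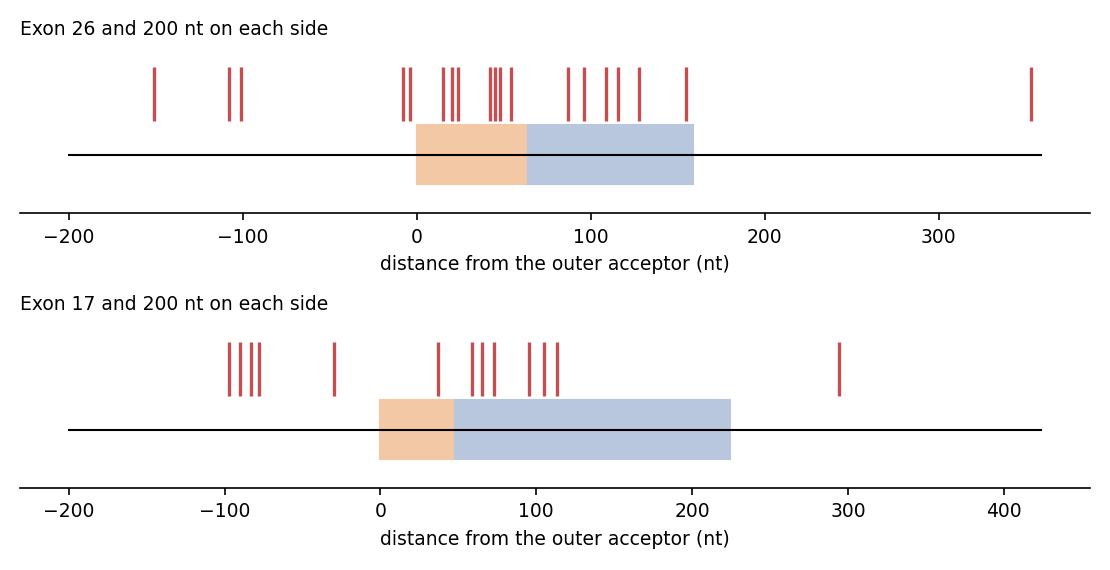
Position of each YCAY (red lines) around exon 26 (top) and exon 17 (bottom), in nt from the outer acceptor. Boxes are the exons, with the stretch between the outer and inner acceptor in orange and the rest in blue; exon 26 holds 13 motifs over 159 nt, and the 200 nt after it hold 1.

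In the protein, both events lie on different sides of the membrane. The annotated Neo1-201 transcript codes for 1492 residues, and its most hydrophobic window of 19 residues, taken as the membrane span, runs from residue 1136 to 1154. Exon 26 covers residues 1279 to 1332, in the cytoplasmic tail, and without it the reading frame continues and gives 1439 residues. With the inner acceptor of exon 26 the frame would shift and end after 1368 residues, 90 of them past the junction. The stretch between the acceptors of exon 17 covers residues 863 to 879, outside the cell, and its loss gives 1476 residues. In a global alignment with the protein of Dcc, 53.6% of 1417 aligned residues were identical. Annotated Dcc transcripts differ at an acceptor pair of their own, 60 nt apart, which covers residues 819 to 839 of Dcc. All 17 residues of the Neo1 stretch aligned inside that part of Dcc, so the acceptor pairs lie at the same place in both proteins. In Dcc this stretch is known to set the length of the linker between neighbouring fibronectin type III repeats, and its use is known to depend on NOVA proteins in neurons. Splicing of Dcc itself was not analysed here. Of the 54 residues that exon 26 touches, 50 aligned with Dcc and 17 were identical.

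Reads at both events can also be read as a level, with the reads of all deposited events as the total, since no expression table was used. These totals, which count both inclusion junctions of each exon, were 124374 and 155864 reads in control replicates 1 and 2 and 193436 and 182795 in NOVA2-overexpressing replicates 1 and 2. Per 1000 of them, Neo1 reads at exon 26 (the mean of the inclusion junctions plus the skipping reads) were 3.82 and 3.60 in control ECs and 5.58 and 5.70 in NOVA2-overexpressing ECs. The level was higher in both NOVA2-overexpressing libraries, 1.52-fold by the means. At exon 17, where every read counts once, the levels per 1000 were 3.06 and 3.15 in control ECs and 4.21 and 4.62 in NOVA2-overexpressing ECs, 1.42-fold by the means. Both places along the mRNA thus had a higher level in the NOVA2-overexpressing libraries. In such bulk samples the number of cells that express a gene and the RNA per cell cannot be told apart.

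Split by form, the level of reads that include exon 26 was 3.69 and 3.47 per 1000 in control ECs and 3.78 and 3.63 in NOVA2-overexpressing ECs, with overlapping ranges. The means were 3.58 ± 0.153 (SD, n = 2) and 3.70 ± 0.104 (SD, n = 2), a ratio of 1.03. Skipping reads were 0.129 and 0.122 per 1000 in control ECs and 1.80 and 2.07 in NOVA2-overexpressing ECs. On this scale the included form differed by less than the SD of the control replicates, and the skipping reads made up most of the difference between the groups. An exact permutation test of 2 against 2 libraries cannot go below a two-sided p of 0.333, so none was run on these levels. The total holds only events that the authors' filter kept, and the number of mapped reads per library was not used here.

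**Figure D3:**
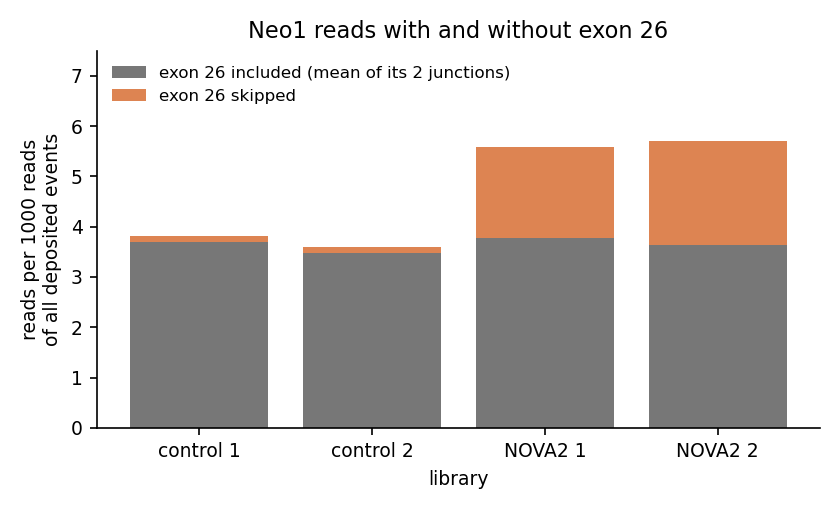
Neo1 reads per 1000 reads of all deposited events in each library, split into reads that include exon 26 (grey, the mean of its junctions) and reads that skip it (orange), stacked from 0. The grey part lies between 3.47 and 3.78 in all 4 libraries, and the orange part is at most 0.129 in control and at least 1.80 in NOVA2-overexpressing libraries.

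Among the 549 deposited cassette exons, 344 had a lower PSI in NOVA2-overexpressing ECs, and exon 26 of Neo1 had the second lowest dPSI. The only lower one, in Lmtk3 (109 nt), was -32.5 points but rested on 18 reads in its thinnest library, with the lowest coverage score of vast-tools (VLOW). The next one, in Lrch3 (108 nt), was -30.7 points, on at least 182 reads. Neo1 had 934 reads in its thinnest library, where the median cassette exon had 63 and 13 had more than Neo1. With the highest coverage score (SOK) required in every library, 205 cassette exons were left, 150 of them lower, and Neo1 had the lowest dPSI, the value for which it was chosen. The acceptor event stood at the other end. It was the best covered of 119 Alt3 events, with 380 reads in its thinnest library against a median of 32, while its dPSI ranked 111th by size and the median was 10.9 points. The cassette exons next to it in dPSI were in Stag3 (6.18 points) and Epb4.1l1 (6.32 points).

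**Figure D4:**
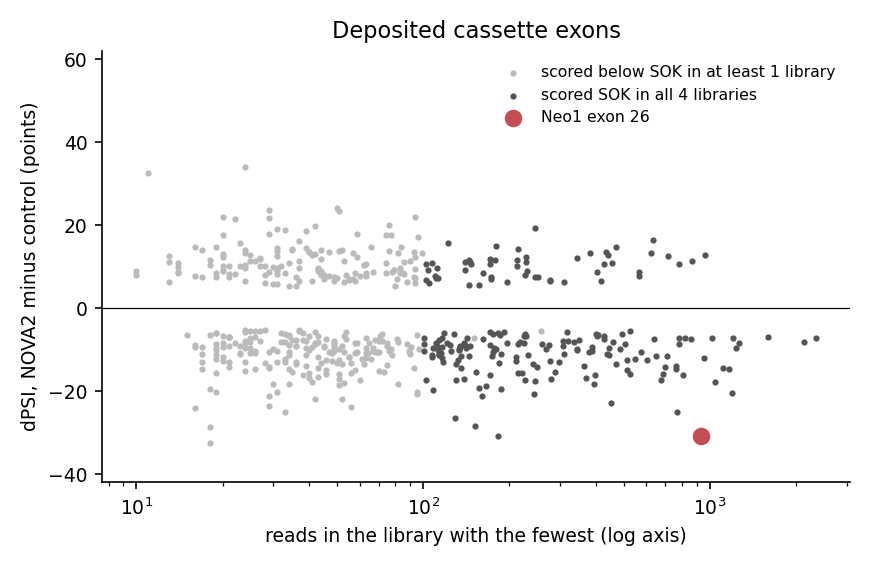
Change of PSI in points (NOVA2-overexpressing minus control mean) of the 549 deposited cassette exons against the reads of the library with the fewest, on a log axis. Dark points scored SOK in all 4 libraries, and exon 26 of Neo1 (red) lies at 934 reads and a dPSI of -30.9, the lowest of the dark points; the empty band around 0 is the authors' filter.

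By pattern, the 5 exons nearest to exon 26 were sought among 447 other cassette exons scored LOW or better in every library, by the Euclidean distance of PSI over the 4 libraries. They lay in Adamts10 (146 nt, distance 9.48 points), Myo5a (81 nt, 9.77), Ccdc136 (171 nt, 10.4, and 159 nt, 10.7) and Mll5 (126 nt, 10.5). All of them were included at a mean of 90.9% to 97.1% in control ECs and 67.2% to 72.1% in NOVA2-overexpressing ECs. None of them could have a dPSI as low as Neo1, since the only lower cassette exon, in Lmtk3, scored VLOW and was not compared. The lowest of the 5, in the exon of Ccdc136 of 171 nt, was -25.1 points on at least 33 reads. Of these exons, counted in their deposited form, Mll5 had 7.94 YCAY per 100 nt and the others 0 to 2.74. Exon 26 of Neo1 had fewer than Mll5 in its own deposited form, 6.32, and 8.18 in its annotated form.

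Other genes of netrin, RGM and BMP signalling were taken from a list of 81 besides Neo1. Of these, 7 had a deposited event and together held 8, and none of the 13 ligands was among them. The share over all genes is not given here and expression of the ligands was not examined, so their absence is no result about ligands. On reads summed per group, 7 of the 8 events passed at an adjusted p of 0.05 (Fisher's exact test, Benjamini-Hochberg over all 1075 events), beside 56.0% of all deposited events. Of these, 6 were lower in NOVA2-overexpressing ECs, where the background for lower events was 25.5%, and 1 was higher, against 30.5%. These shares mix event classes, and 7 of the 8 were cassette exons, a class in which 247 of 549 events were called lower and 138 higher. This test speaks for these libraries alone, as summing leaves out how much libraries of a group vary, and it was applied to events already selected for a difference. The deposited reads also count both inclusion junctions, and at exon 26 skipping reads were scaled up with them, which makes p values too small. The adjusted p values of single events below rest on such reads as well. With the inclusion junctions averaged, 5 of the 8 passed, beside 36.8% of all deposited events. The events of the list were also better covered than most, with a median of 154 reads in the thinnest library against 46 over all deposited events. The 7 cassette exons of the list had a median dPSI of -12.1 points, against -7.65 over all deposited cassette exons.

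Unc5b, a netrin receptor that forms complexes with neogenin, had the lowest dPSI on the list, -18.3 points. Its exon of 33 nt had a PSI of 91.20% and 91.89% in control ECs and of 67.88% and 78.63% in NOVA2-overexpressing ECs (Fisher's exact test, adjusted p = 7.32e-07). The NOVA2-overexpressing replicates were far apart, with an SD of 7.60 points, but both lay below the control ones. The other receptor, Acvr2b, a type II receptor for activins and BMPs, had an acceptor event at 12.50% and 12.59% in control ECs and at 23.81% and 25.00% in NOVA2-overexpressing ECs. It rested on 16 to 21 reads per library and did not pass (adjusted p = 0.259, Fisher's exact test).

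Among cytoplasmic partners, Arhgef12 (LARG) is an exchange factor that acts downstream of RGM receptors. The PSI of its exon of 57 nt was 62.59% and 61.71% in control ECs and 43.95% and 45.70% in NOVA2-overexpressing ECs, a dPSI of -17.3 points with replicates close to each other. Evl, an Ena/VASP protein that promotes the growth of actin filaments, had an exon of 63 nt at 73.94% and 69.00% in control ECs and at 54.33% and 59.41% in NOVA2-overexpressing ECs. In Tiam1, an exchange factor for Rac1, an exon of 82 nt went from 82.80% and 85.90% to 69.68% and 75.07%. All of these were lower with NOVA2, with adjusted p values of 1.52e-08, 3.91e-18 and 0.0164 in Fisher's exact test, and the Tiam1 call was lost without control replicate 2 (adjusted p = 0.189) or without NOVA2-overexpressing replicate 1 (0.140), and with averaged inclusion junctions (0.0722).

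Smad4, the SMAD shared by BMP and TGF-beta signalling, had 2 deposited exons, of 117 nt and 120 nt. The exon of 117 nt had a PSI of 98.13% and 98.47% in control ECs and of 87.04% and 85.41% in NOVA2-overexpressing ECs. The exon of 120 nt went from 97.96% and 98.25% to 89.76% and 89.39%, and both passed (adjusted p = 7.36e-58 and 5.81e-28, Fisher's exact test). Like exon 26 of Neo1, both were almost always included in control ECs. Lrig2, a membrane protein that protects neogenin from shedding by ADAM17, had the only called rise, from 86.71% and 92.75% to 100% in both NOVA2-overexpressing libraries for an exon of 144 nt. That exon had 18 to 33 reads per library, and its adjusted p of 0.0485 from Fisher's exact test rose to 0.108 to 0.199 when any of the 4 libraries was left out and to 0.210 with averaged inclusion junctions.

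The lower exons of the list varied in how close they were to exon 26 of Neo1 in sequence. Of 6 such exons, 5 were multiples of 3, the exception being Tiam1, and both Smad4 exons were among the 5. Exon 26 is a multiple of 3 in its annotated form but not in its deposited form of 95 nt. The share over all deposited cassette exons is not given here, so this count marks no trait of the list. In YCAY, the exon of 117 nt in Smad4 was the nearest to exon 26, with 5.98 per 100 nt. Exon 26 itself had 6.32 in its deposited form and 8.18 in its annotated form. The exons of Arhgef12 and Tiam1 held none. In the 200 nt before the exon, Unc5b had 11 motifs and Arhgef12 10, while Evl and Tiam1 had 4 each and the Smad4 exons 3 each. Before the annotated acceptor of exon 26 there were 5. Counted from its deposited inner acceptor there were 11, but 7 of these lie between the acceptors, within the annotated exon. The 200 nt after the exon held 7 motifs for the Smad4 exon of 120 nt and 4 for that of 117 nt. Unc5b had 6 there, Evl and Tiam1 4 each and Arhgef12 2, against 1 after exon 26.

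**Figure D5:**
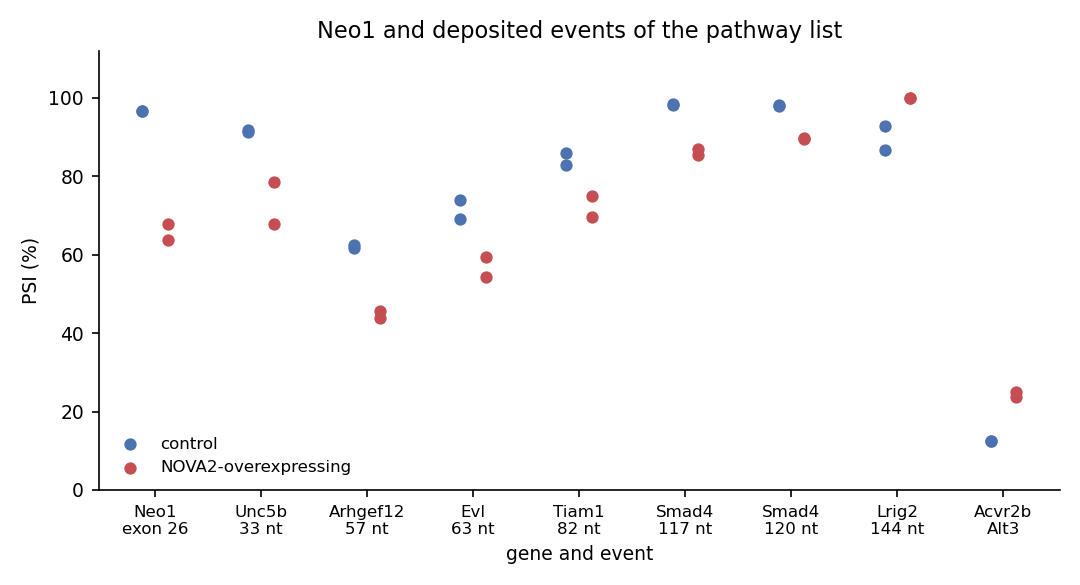
PSI in percent of exon 26 of Neo1 and of the 8 deposited events in other genes of the list, with control libraries in blue and NOVA2-overexpressing libraries in red, 1 point per library. Groups do not overlap in any event, which the filter of the table requires. Of the 8, 6 are lower and 2 are higher with NOVA2, and Neo1, chosen for its low dPSI, shows the largest distance.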

How the data were processed

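The authors aligned the reads of 4 libraries to mm9 with vast-tools (version not given in the sources used here). The deposited table holds each event's PSI as a percent, and a quality string with coverage scores, junction reads, and inclusion and exclusion reads after mappability correction. The authors kept an event only where the PSI ranges of the groups lay more than 5 points apart. The dPSI column of the authors and 12 further columns of values per sample were not used, and events outside this filter are not analysed here.

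The gene, the list of pathway genes and the tests were chosen with earlier results of these data known. Genes named are Neo1, the listed pathway genes with an event, the 5 exons nearest in PSI and the neighbours in dPSI. Rounded corrected reads were summed per group and tested for every event by Fisher's exact test in scipy 1.17.1 with Benjamini-Hochberg adjustment over 1075 events, after a check on simulated data. Alternatives were limma 3.58.1 in R 4.3.3 on log2 ratios of inclusion to exclusion reads (pseudocount 0.5 or 1), a Cochran-Mantel-Haenszel test, filters on coverage and dPSI, single or averaged inclusion junctions, and leaving out each library. Sequence and gene models are those of NCBIM37 with GENCODE, the build of the table. As a check of build and strand, 546 of 549 cassette exons were preceded by AG and 549 followed by GT or GC. Splice site scores sum log2 odds over 20 intron and 3 exon bases (acceptor) or 3 exon and 6 intron bases (donor). Hydropathy was taken on the Kyte-Doolittle scale. Python 3.11.15, pandas 2.3.3, statsmodels 0.14.6, biopython 1.88 and matplotlib 3.10.9 were used.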

Additional observations from a re-analysis of the deposited data

How the results depend on the processing

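Of 53 alternatives over 10 results, 48 kept their direction and their side of the threshold, stayed within the spread of the replicates or, for counts, within 1.5 times, although single pathway events crossed the threshold within such counts. The dPSI of exon 26 ranged from -33.0 to -28.9 with each library left out, and was -31.8 with the upstream and -30.1 with the downstream inclusion junction alone. That of the exon 17 acceptor ranged from 5.09 to 7.54, and was 6.19 from raw reads, an alternative added after seeing the data. The ratio of junction balance ran from 0.887 to 1.03 with each library left out and changed side only without control replicate 1. The difference between control replicates at exon 26 was -0.213 points with the downstream junction alone. That between NOVA2-overexpressing replicates was then 3.74 points and no longer passed (p = 0.0691, Fisher's exact test). The ratio of Neo1 levels between groups ranged from 1.48 to 1.57 for all reads at exon 26 and from 1.00 to 1.07 for the included form with each library left out, and was 1.54 and 1.04 with cassette exons as the total. Of the nearest 5 exons, 3 remained on the log2 odds scale and 2 with SOK required in every library. The list of pathway genes had 5 to 6 called events with each library left out (Lrig2 lost each time, Tiam1 in 2 of the 4), 5 with the inclusion junctions averaged, an alternative added after seeing the data that called 396 of all deposited events in place of 602, and 8 with limma, where Acvr2b passed (adjusted p = 0.0389) but which also called 88.7% of all deposited events.

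The replicate number marks no shared batch in the labels, and the differences between replicates 1 and 2 in the groups were uncorrelated over events (r = 0.00386, n = 1075). With a replicate block by the Cochran-Mantel-Haenszel test, 7 events of the list were called, and 644 against 602 of all events. The paired dPSI was the same, -30.9 and 6.32, and the junction balance had a ratio of 0.956 in the blocked test, which did not pass either. Depth limits the junction balance and the acceptor of exon 17, which had 18 and 23 reads in control ECs.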
